A study of Mus musculus with 12 samples.

Results

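The Slc22 family of organic ion transporters was followed in liver of obese diabetic mice that took up molecular hydrogen (H2). The genes were the 8 listed as Slc22a5, Slc22a7, Slc22a18, Slc22a23, Slc22a26, Slc22a27, Slc22a28 and Slc22a30, out of 20297 gene symbols on the array, and every probe whose RefSeq record belonged to one of them was taken. 7 of the 8 genes had a probe, 8 probes in all, of which Slc22a28 had 2, and Slc22a30 is named only. The group was put together because Slc22a26 had the largest fall after 1 day among the genes called and lower on every array, so the 1 day ratios chose it and are given as a description, without a test.

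All animals were male db/db mice, 8 weeks-old, which lack a functional leptin receptor. Treated mice received MgH2, a compound that releases H2 in the stomach, at 0.9 mg/kg per the labels by gavage once daily for 1, 3 or 7 days, and their controls received Mg(OH)2. A further set drank water holding 0.8 mM H2 for 14 days against degassed water. Per the methods MgH2 was suspended in glycerol, and each RNA was a pool of 3 mice. Each time had 3 arrays, and each array held a treated pool labelled with Cy5 and a control pool labelled with Cy3, with no dye swap. A value below is the log2 ratio of treated over control after each channel was divided by its total, and a level is the signal of a probe as parts of its channel's total scaled to 1000000. In bulk liver, fewer cells of a type and less RNA per cell cannot be told apart, and a dye effect on a probe cannot be told apart from treatment.

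SLC22 proteins sit in membranes and carry organic cations, anions or zwitterions such as carnitine, drugs, urate and conjugated steroids. In liver they bring such compounds in from blood at the sinusoidal face of the hepatocyte. Mice also have a row of organic anion transporter genes with no simple human counterpart, to which Slc22a26, Slc22a27, Slc22a28 and Slc22a30 belong, and several of these differ in level between male and female liver or kidney. In RefSeq's gene order for GRCm38.p6, Slc22a19, Slc22a26, Slc22a27, Slc22a28, Slc22a29, Slc22a30, Slc22a8 and Slc22a6 followed each other on chromosome 19 with no other protein-coding gene between them.

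The RefSeq table held promoters for 7 of the 8 genes. The 250 bases before the start of the 4 genes of this row are shown because Slc22a26 and Slc22a27 were both low at 1 day, Slc22a28 was called lower at 3 and 7 days, and Slc22a30 is named only. They lie on the minus strand of GRCm38.p6 at chr19:7802668-7802917, chr19:7966028-7966277, chr19:8131983-8132232 and chr19:8405106-8405355, in the order given, and read 5′ to 3′ with a STAT5 letter match in capitals.
Slc22a26: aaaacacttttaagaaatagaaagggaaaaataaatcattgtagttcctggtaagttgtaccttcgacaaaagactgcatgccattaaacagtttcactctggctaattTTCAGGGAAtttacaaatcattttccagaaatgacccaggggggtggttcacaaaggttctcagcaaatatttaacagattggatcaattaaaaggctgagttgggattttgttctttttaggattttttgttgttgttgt
Slc22a27: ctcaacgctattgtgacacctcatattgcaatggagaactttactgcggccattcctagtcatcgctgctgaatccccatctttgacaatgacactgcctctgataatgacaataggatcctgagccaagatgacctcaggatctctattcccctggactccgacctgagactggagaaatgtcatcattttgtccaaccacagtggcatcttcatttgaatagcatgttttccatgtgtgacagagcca
Slc22a28: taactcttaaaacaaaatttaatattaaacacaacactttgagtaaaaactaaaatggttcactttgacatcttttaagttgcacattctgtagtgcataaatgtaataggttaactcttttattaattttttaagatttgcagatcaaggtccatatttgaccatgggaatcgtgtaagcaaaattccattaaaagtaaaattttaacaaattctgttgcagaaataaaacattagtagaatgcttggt
Slc22a30: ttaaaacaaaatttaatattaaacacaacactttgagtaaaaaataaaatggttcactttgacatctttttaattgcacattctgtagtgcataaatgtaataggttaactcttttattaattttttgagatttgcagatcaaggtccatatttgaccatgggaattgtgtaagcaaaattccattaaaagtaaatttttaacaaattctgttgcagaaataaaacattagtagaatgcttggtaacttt

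The last 2 sequences are near copies: over 244 aligned bases 238 were the same, an identity of 97.5%. Slc22a26 and Slc22a28 aligned over 174 bases with an identity of 64.9%, while Slc22a26 and Slc22a27, both low at 1 day, aligned over 67 bases with 74.6% identity. The probe sequences are not given here, so how far a Slc22a28 probe also binds Slc22a29 or Slc22a30 RNA was not tested. 5 motifs were searched on both strands. TTCNNNGAA, the palindrome read by STAT5, stood once in the Slc22a26 promoter, 141 bases before the start, and in 7.02% of 32851 promoters of the same length. GTTAAT, a core of the HNF1 site, was in 6.43% of them, TATAAA in 12.4%, TCACNCCAC, a sterol element, in 1.05% and CAAAGTCCA, an HNF4A core, in 0.384%. None of these 4 was in the windows of the 7 genes. Of the neighbours outside the group, Slc22a19, next to Slc22a26, held TTCNNNGAA at -224 and -123 from the start. Slc22a29 held GTTAAT at -29.

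On each of the 12 arrays all 8 probes were well above background, treated and control channel alike. Across arrays 51.8% to 56.5% of spots were well above background, 160 to 244 were marked as outliers, and 0 were saturated. Signals of different probes have no common scale, so levels are compared only between pools of one probe.

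After 1 day of MgH2, the Slc22a26 ratio was -1.03, -0.59 and -1.25 on the 3 arrays, with a mean of -0.96 ± 0.34 (SD, n = 3), or -0.56 after normexp background correction and loess. Its level was 1.27, 1.21 and 1.34 in the treated pools and 2.59, 1.81 and 3.19 in the controls. The groups did not overlap, and the treated pools lay closer to each other than the controls did. Slc22a26 ranked 4 of 12168 genes by mean fall. Sult2a1, Sult2a3 and Sult3a2, sulfotransferases, had mean ratios of -2.03, -1.61 and -1.02, but their arrays ran from 0.11 to -4.75 for Sult2a1, and none of the 3 passed limma's threshold of an adjusted p under 0.05. Slc22a26 was the lowest of those that did and that were below 0 on all 3 arrays. 8.03% of the 19681 probes tested were called lower at 1 day, 3.64% higher and 11.7% in either direction, and nothing is read from the gene's own call because it was chosen on it. Genes that followed it by mean fall included Sult2a6 at -0.91 and Hao2, a peroxisomal hydroxyacid oxidase, at -0.85.

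Slc22a27 ranked 20 of 12168 with ratios of -0.31, -0.91 and -0.68, a mean of -0.64 ± 0.30 (SD, n = 3), or -0.36 after normexp and loess. Its treated pools were at 1.05, 0.763 and 1.05 and its controls at 1.30, 1.43 and 1.69, again without overlap. Both genes were thus low together at 1 day. Slc22a5, the sodium-coupled carnitine transporter, had -0.42, -0.10 and -0.26, a mean of -0.26. Slc22a18, an imprinted transporter gene, had -0.09, -0.20 and -0.14, a mean of -0.14. The other 3 genes lay around 0 at this time, with array means of -0.05 for Slc22a28, 0.02 for Slc22a23, an orphan transporter, and 0.06 for Slc22a7. Slc22a7 was low on 1 array, at -0.45, and above 0 on the other two, at 0.24 and 0.40. Over the 7 genes the median ratio was -0.14, against -0.04 over all probes tested.

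**Figure D1:**
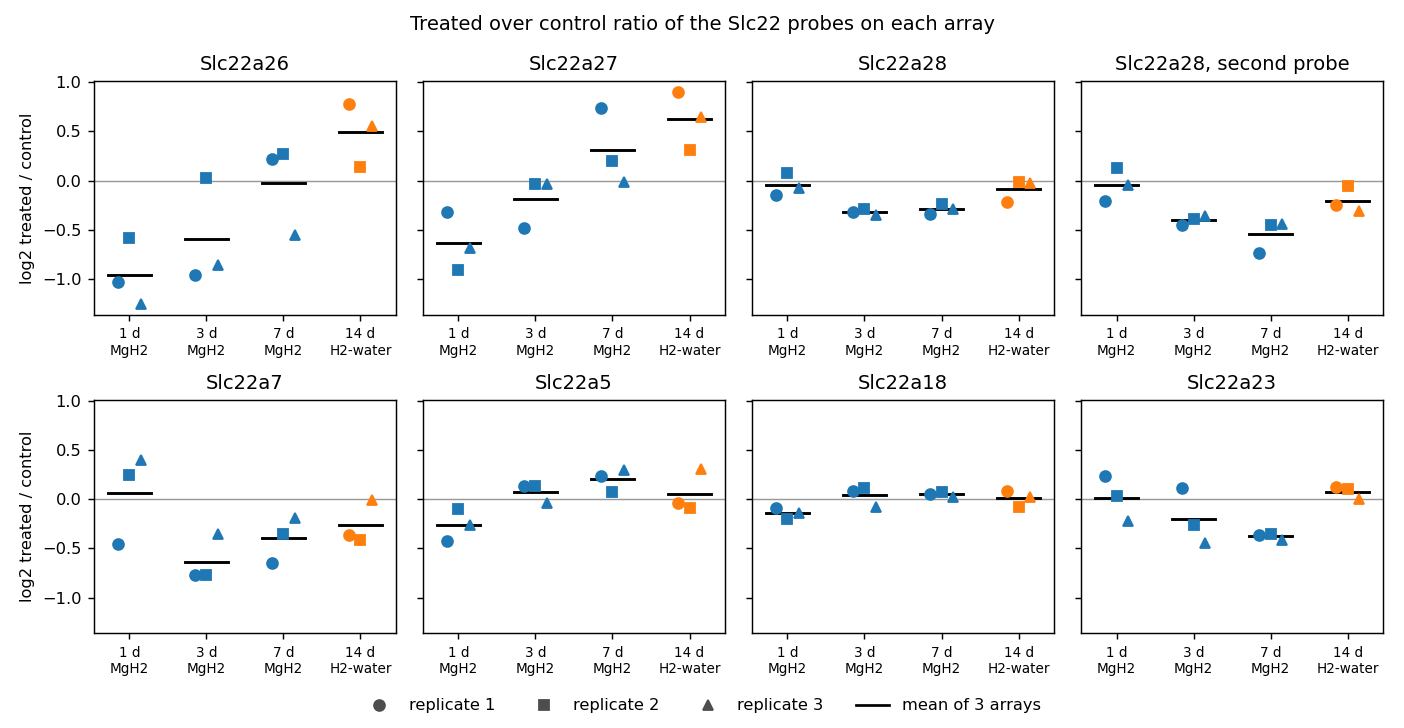
Log2 treated over control ratio (vertical axis) of the 8 probes on each array at 1, 3 and 7 days of MgH2 (blue) and 14 days of H2-water (orange); symbols give the replicate number and bars the mean of 3 arrays. Slc22a26 and Slc22a27 start at means of -0.96 and -0.64 at 1 day and stand at 0.49 and 0.62 at 14 days, while both Slc22a28 probes lie below 0 on all arrays at 3 and 7 days.

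The Slc22a26 ratio was -0.96, 0.03 and -0.85 after 3 days. Its mean was -0.59 (SE 0.220), with a limma adjusted p of 0.0760, so it was not called. Replicate 2 alone stood above 0, and without it the mean was -0.90 with a limma adjusted p of 0.0355. After 7 days the arrays gave 0.22, 0.27 and -0.56, and the mean was -0.02, with a 95% interval from -0.51 to 0.47, or 0.25 without replicate 3. After 14 days of H2-water they gave 0.78, 0.14 and 0.55. All 3 were above 0, but the mean of 0.49 (SE 0.223) did not pass, with a limma adjusted p of 0.204. Control pools spread widely at that time, from 1.59 to 3.31, and overlapped the treated pools, which ran from 2.72 to 3.75. Slc22a26 is therefore given as a low ratio at 1 day that was not called at any later time.

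The Slc22a27 ratio was -0.48, -0.04 and -0.04 after 3 days, a mean of -0.18 with a limma adjusted p of 0.448. After 7 days it was 0.73, 0.20 and -0.01, a mean of 0.31 with a limma adjusted p of 0.183. After 14 days it was 0.90, 0.31 and 0.65. It was the only 1 of the 7 genes called at 14 days, where it rose by 0.62 (SE 0.164, 95% interval 0.26 to 0.99, limma adjusted p = 0.0431). Of the 20494 probes tested at that time, 3.9% were called higher, 5.75% lower and 9.66% in either direction. The call was not firm, because leaving out replicate 1, 2 or 3 gave limma adjusted p values of 0.239, 0.0715 and 0.182, with means of 0.48, 0.78 and 0.61. Fitted on the 14 day arrays alone its limma adjusted p was 0.0693, and with no filter on dim probes 0.0593. Its pools also overlapped, with controls at 2.31, 4.92 and 3.51 and treated pools at 4.31, 6.12 and 5.51. Within each array the treated pool was the higher.

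Slc22a28 was called lower at 3 and 7 days. After 3 days its ratio was -0.32, -0.28 and -0.35, and its pools did not overlap, at 8.96, 9.64 and 8.89 with MgH2 against 11.1, 11.7 and 11.3 in controls. The mean fell by 0.32 (SE 0.0518, limma adjusted p = 0.00283). The second probe gave -0.45, -0.38 and -0.36, a mean of -0.40 with a limma adjusted p of 0.00517. Both probes were thus low at 3 days. After 7 days the first probe stood at -0.34, -0.24 and -0.28, a mean of -0.29 (SE 0.0518, limma adjusted p = 0.00302). The second probe was lower, at -0.74, -0.45 and -0.44, a mean of -0.54 with a limma adjusted p of 0.000799. Leaving out any 1 array kept the first probe's calls at both times, with adjusted p values up to 0.0260. A fit on the 3 day arrays alone gave limma adjusted p values of 0.0612 for Slc22a28 and 0.0654 for Slc22a7. After 14 days of H2-water the first probe averaged -0.08 with a limma adjusted p of 0.367, turning to 0.0062 after median centring, and the second -0.20 with 0.122, neither called.

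Slc22a7 encodes an organic anion transporter of the hepatocyte's blood-facing membrane. After 3 days its ratio was -0.77, -0.77 and -0.36, and its treated pools, at 13.0, 13.4 and 12.2, all lay under the controls, at 22.2, 22.9 and 15.7. It fell by 0.63 (SE 0.157, limma adjusted p = 0.0168), the largest change of the 7 genes among the calls at 3 days. The call was lost without replicate 1 and without replicate 2, with limma adjusted p values of 0.0846 and 0.101 and means of -0.56 in both. After 7 days the ratio was -0.64, -0.35 and -0.19, below 0 on all 3 arrays, and the mean of -0.39 was not called, with a limma adjusted p of 0.0855. With the replicate number as a block that p was 0.0121. After 14 days it was -0.36, -0.41 and -0.01, a mean of -0.26 with a limma adjusted p of 0.344.

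Slc22a23, an orphan member, stood at 0.12, -0.26 and -0.45 after 3 days and was not called, with a limma adjusted p of 0.179. Its mean of -0.20 was -0.35 without replicate 1, with a limma adjusted p of 0.0329, and -0.07 without replicate 3, with 0.687. After 7 days all 3 arrays were close together, at -0.36, -0.36 and -0.41. It fell by 0.38 (SE 0.0996, limma adjusted p = 0.0186), with treated pools at 11.0, 11.6 and 12.5 below controls at 14.1, 14.9 and 16.6. Leaving out replicate 1, 2 or 3 lost this call, with limma adjusted p values of 0.0691, 0.0652 and 0.0900 and means from -0.39 to -0.36. After 14 days its ratio was 0.12, 0.10 and 0.00, a mean of 0.07.

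Slc22a5 and Slc22a18 were not called at any of the 3 later times. Slc22a5 had means of 0.07, 0.20 and 0.06 at 3, 7 and 14 days, with its lowest limma adjusted p, 0.0948, at 7 days, where all 3 arrays were above 0, and after loess that p was 0.0421. Its 14 day mean turned to -0.07 without replicate 3. Slc22a18 had means of 0.04, 0.05 and 0.01, with array values from -0.08 to 0.12. The 95% intervals of Slc22a18 lay within -0.10 and 0.16 at all 3 times.

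In all, 2 of the 7 genes were called lower at 3 days, Slc22a7 and Slc22a28, and 0 higher. At that time 14.5% of 19444 probes were called lower, 9.05% higher and 23.6% in either direction. At 7 days 2 were lower, Slc22a23 and Slc22a28, against 17.2% of 19491 probes called lower, 12.2% higher and 29.4% in either direction. At shares like these, 2 of 7 is not a result about the group as a whole. The median ratio over the 7 genes was -0.20, -0.02 and 0.06 at 3, 7 and 14 days, and over all probes tested it was -0.03, -0.02 and -0.03. The 7 day median changed sign, to 0.00 or 0.01, with ratios as deposited and with loess.

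**Figure D2:**
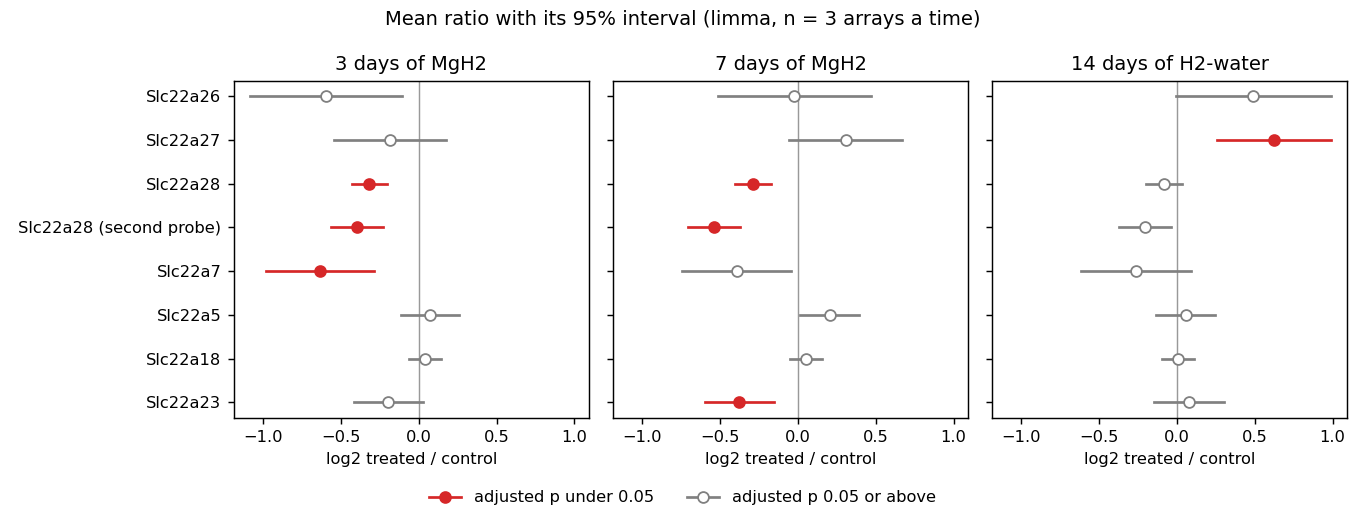
Mean log2 treated over control ratio (horizontal axis) of each probe with its 95% interval from limma at 3, 7 and 14 days, n = 3 arrays; filled red points passed an adjusted p under 0.05. Calls lie with Slc22a28 and Slc22a7 at 3 days, Slc22a28 and Slc22a23 at 7 days, and Slc22a27 at 14 days.

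Between 3 and 7 days of MgH2 limma called 0 of the 7 genes, and 0 of 19123 probes (0%), while 892 probes had an unadjusted p under 0.05. The lowest unadjusted p among the 7 genes was that of Slc22a27, 0.0574, whose ratio was higher by 0.49 at 7 days, on arrays that did not overlap. Slc22a26 was higher by 0.57, with a 95% interval from -0.12 to 1.26. 2 arrays of each time shared a slide, and within it the differences were 0.66 for Slc22a26 and 0.51 for Slc22a27.

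Between 7 and 14 days, which differ in agent, route and control as well as in time, 0 of the 7 genes were called by limma, while 6.51% of 18765 probes were, 3.5% higher and 3.01% lower. Slc22a23 was higher at 14 days by 0.45 (SE 0.140, unadjusted p = 0.00902, limma adjusted p = 0.0816). The replicate block brought its adjusted p to 0.0254, and that of Slc22a28, which was higher by 0.20, from 0.119 to 0.0442. Days, agent and route cannot be told apart.

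Control levels of some of these genes kept the same order by replicate number. For Slc22a26 the control of replicate 3 was the highest at 1, 3 and 7 days, at 3.19, 3.09 and 2.89, and that of replicate 2 the lowest, at 1.81, 2.24 and 1.56. For Slc22a7 the replicate 3 control was the lowest at all 3 times, at 15.2, 15.7 and 15.2, against 21.7 to 24.0 for the others. Over 18425 probes, deviations of the control channel from the time's mean correlated at 0.32 to 0.67 between same-numbered arrays of 1, 3 and 7 days, and at -0.49 to 0.09 between different numbers. In the treated channel the same-numbered values ran from -0.30 to 0.18. The labels do not say whether the control pools were shared between those times, so the 3 and 7 day ratios may share controls with the 1 day ratios that chose the genes. The H2-water pools, in turn, were run on a slide of their own. Slc22a27 averaged 3.58 in their controls against 1.48 to 1.56 in the gavage controls, and Slc22a7 averaged 11.6 against 19.7 to 20.5. The first Slc22a28 probe stood at 16.3 against 11.4 to 11.7, and the second at 18.5 against 6.63 to 6.83, so the probes of this gene differed in size. Kidney tubule markers summed to 6.32 to 7.77 in the H2-water controls. In the gavage controls of 1, 3 and 7 days they summed to 1.05 to 1.29, 1.28 to 1.501 and 1.07 to 1.40. Of the 6 markers, 2 were well above background at 14 days and 1 at each gavage time. The part of kidney RNA in these control levels was not tested. Slide, scan software, control treatment and tissue content cannot be told apart here.

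**Figure D3:**
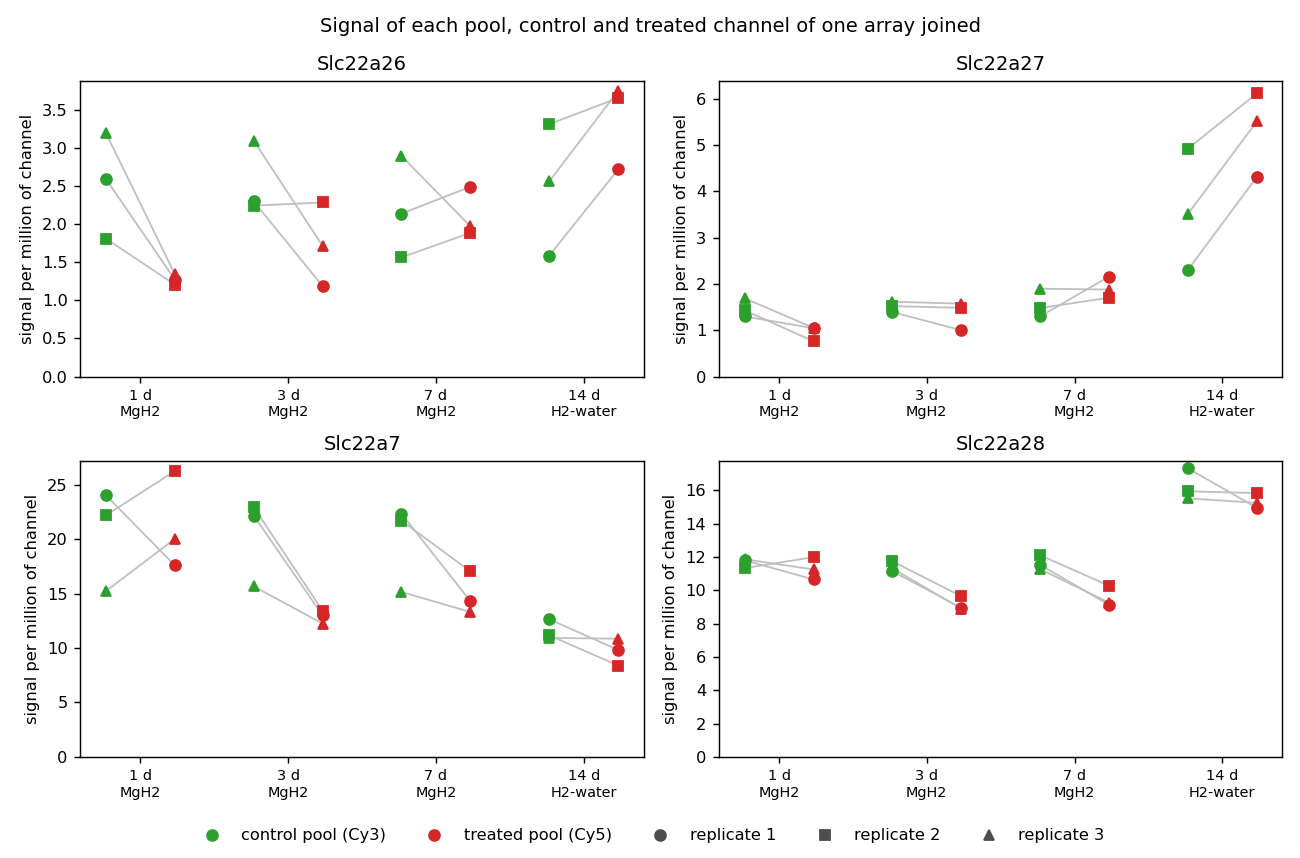
Level, as defined above for a channel, (vertical axis, from 0) of Slc22a26, Slc22a27, Slc22a7 and Slc22a28 in each control pool (green) and treated pool (red), the 2 channels of an array joined by a line; symbols give the replicate number. Slc22a26 at 1 day has treated pools at 1.21 to 1.34 and control pools at 1.81 to 3.19, and the Slc22a7 control of replicate 3 is the lowest of its time at 1, 3 and 7 days.

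Slc22a29, outside the 8, lies between Slc22a28 and Slc22a30 in the gene order. All 3 of its 1 day ratios were below 0, with a mean of -0.66, and its means were 0.01, 0.35 and 0.35 at 3, 7 and 14 days. The 1 and 7 day arrays did not overlap. Its 7 day value just missed the threshold, with a limma adjusted p of 0.0503, and its other adjusted p values were 0.951 at 3 days and 0.0991 at 14 days. Of 17 other family members, 9 were tested at 3 and 7 days, with 2 called higher and 1 lower at 3 days and 1 higher and 1 lower at 7 days. Shares over all probes at these times were 9.05% and 12.2% higher and 14.5% and 17.2% lower, so nothing is read from these counts. At 3 days Slc22a3, an organic cation transporter, rose by 0.67 (limma adjusted p = 0.0197), and Slc22a6, the organic anion transporter of kidney, rose by 0.35 (limma adjusted p = 0.00867). Kidney tubule markers summed to 1.71 to 1.77 in the treated pools at that time against 1.28 to 1.501 in controls, but 5 of the 6 were not well above background in both channels of all those arrays, and Aqp2, the marker that was, stood at 0.04 with a limma adjusted p of 0.803. The part of kidney RNA in the Slc22a6 value was not tested. At 7 days Slc22a3 was higher by 0.71 (limma adjusted p = 0.0124), and at 14 days 0 of 8 tested were called. Family medians were 0.01, 0.05 and 0.05 at 3, 7 and 14 days, and the 7 day median turned to -0.04 after median centring.

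Other organic ion and bile acid transporters were called in both directions. Of 17 tested, 4 rose and 2 fell at 3 days, 3 rose and 4 fell at 7 days, and 1 rose and 1 fell at 14 days. Shares called over all probes were 9.05%, 12.2% and 3.9% higher and 14.5%, 17.2% and 5.75% lower at these times. Nothing is read from these counts. Slco1a4, a sinusoidal organic anion transporter, rose by 0.49 at 3 days and by 0.83 at 7 days, with limma adjusted p values of 0.0451 and 0.00376. Abcc6 rose at all 3 times, by 0.18, 0.18 and 0.20. Slco1b2, the bilirubin and bile acid importer, fell by 0.18 and 0.27 at 3 and 7 days, and Slc47a1, which extrudes cations into bile, fell by 0.26 and 0.20. Among 9 genes of carnitine synthesis and the carnitine shuttle, the pathway that Slc22a5 feeds, Cpt1a rose by 0.30, 0.40 and 0.25 at 3, 7 and 14 days and Bbox1, the last enzyme of carnitine synthesis, fell by 0.10 at 3 days. The other 7 were not called at any of these times.

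Genes that differ between male and female liver were listed because several Slc22 genes do. Of the male-biased genes 0 rose and 2 of 13 fell at 3 days, 3 of 13 fell at 7 days and 1 of 14 fell at 14 days. Cyp4a12a and Cyp4a12b, male-pattern hydroxylases, fell by 0.47 and 0.49 at 7 days. Of the female-biased genes 0 of 11 were called at 3 days, 1 of 12 was called higher at 7 days, and 0 of 12 were called at 14 days. Over all probes 14.5%, 17.2% and 5.75% were called lower at 3, 7 and 14 days, and 9.05%, 12.2% and 3.9% higher, so nothing is read from these counts. The male-biased median ran 0.20, 0.05, -0.13 and -0.49 from 1 to 14 days and the female-biased median -0.24, 0.00, 0.16 and 0.27. The 3 day female-biased median, at 0.00 by the main scaling, was 0.03 with ratios as deposited. In the growth hormone and STAT5 list of 8 genes, Igfals, which binds IGF in blood, fell by 0.34, 0.44 and 0.35 at 3, 7 and 14 days, and Stat5b rose by 0.27 at 7 days.

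Genes whose ratio over the 12 arrays was most like that of Slc22a26 were ranked by Pearson correlation among 11578 genes. The highest were Cyp51 (0.96), Dhcr7 (0.94) and Fdft1 (0.94), enzymes of cholesterol synthesis, Aldh4a1 (0.93), of proline breakdown, and H3c4 (0.93), a histone gene. Among the lowest were Sdsl (-0.90), Zfp628 (-0.90), Ptk7 (-0.90) and Smim15 (-0.89). Slc22a27 ranked 32 at 0.85, and Slc22a29 stood at 0.73. The Slc22a26 ratio left a gap between 6 arrays at -0.56 or lower and 6 at 0.03 or higher, so the values are also given within each 6. In the lower and the upper 6 the correlation was 0.51 and 0.78 with Cyp51, 0.56 and 0.49 with Fdft1, and 0.18 and 0.81 with Slc22a27. Its sign differed between them for Dhcr7, at -0.15 and 0.80, and for Smim15, at -0.41 and 0.18. With each time's mean removed, the correlation was 0.90 for Cyp51 and 0.45 for Slc22a27 over the 12 arrays. The arrays share slides, and their controls may be shared, so these are descriptions without a test.

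**Figure D4:**
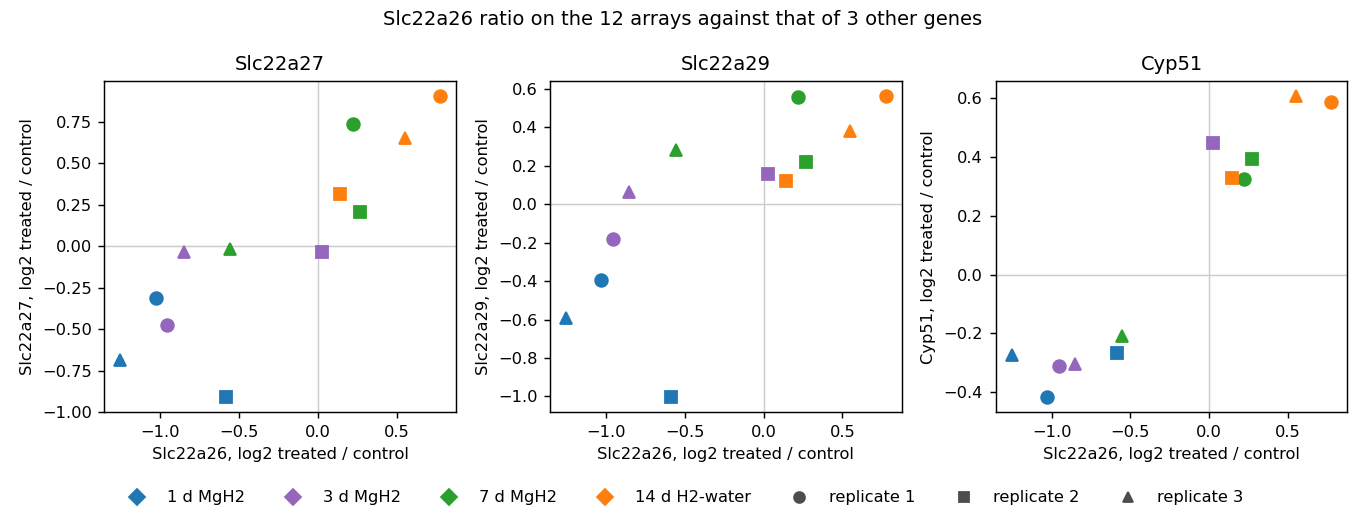
Log2 treated over control ratio of Slc22a27, Slc22a29 and Cyp51 (vertical axes) against that of Slc22a26 (horizontal axes) on the 12 arrays; colours give the time and symbols the replicate number. The 1 day arrays lie at the lower left and the 14 day arrays at the upper right, and the correlation over 12 arrays is 0.85, 0.73 and 0.96.

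Some markers of other liver cells were called at the times when Slc22a7, Slc22a28 and Slc22a23 were low. At 3 days 3 of 6 Kupffer and immune markers tested fell, and their summed level was 73.0 to 86.3 in treated pools against 96.9 to 118 in controls. At 7 days 4 of 6 fell, and the sums were 75.1 to 81.5 against 103 to 116. Stellate cell markers fell for 3 of 5 at 3 days and 2 of 5 at 7 days. Of 5 endothelial markers, 1 was called higher and 1 lower at each of these times. Over all probes 14.5% and 17.2% were called lower and 9.05% and 12.2% higher. After normexp and loess the stellate median went from -0.42 to -0.08 at 3 days and from -0.22 to -0.06 at 7 days. The Kupffer and immune median went from -0.34 to -0.12 at 3 days and from -0.42 to -0.23 at 7 days. All 6 hepatocyte markers were well above background, with 1 of 6 called higher at 3 days and 3 of 6 at 7 days, Alb, serum albumin, by 0.22 and 0.38. The erythroid gene Alas2 fell by 0.59, 0.72 and 0.44 at 3, 7 and 14 days, the only 1 of 4 blood cell markers called at each time. The median of these 4 was -0.04, -0.34 and -0.13, and the highest of them stood at 0.13, -0.23 and 0.03. Of kidney markers Umod and Kap, and of pancreas markers Prss1 and Cela1, were not well above background on any array. The part of any of these cells in the Slc22 values was not tested.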

How the data were processed

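RNA from treated and control liver pools was hybridised to 12 two-colour Agilent arrays on 4 slides. The samples were grouped by the treatment and time in their labels, which do not say whether the gavage times had separate control pools. The authors scanned and extracted the arrays with Agilent Feature Extraction, 10.10.1 in the submitters' processing notes, while the file headers give 10.7.3.1 for 14 days and 10.10.1.1 for 1, 3 and 7 days. The processed signal intensity of each channel was used as deposited, after the authors' background subtraction and dye normalization. The table deposited by the authors holds log2 ratios of Cy5 over Cy3 for the same spots, with a median of 0 in each column. It differed from the scanner files' log ratio, put on that scale, by at most 1.4e-06, so its scale and direction are settled, and it was an alternative. Per the file headers, the scanner files give log10 ratios made by Feature Extraction. Columns of log ratio p-values per the file headers were used only as an alternative filter. Headers name build mm9, so no probe coordinates are printed.

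Outlier and control spots were left out, and each channel was divided by its total (the ratio of channel totals was 1.01 to 1.03). The 43020 spots were averaged to 39429 probes. Of these 26787 (67.9%) had a gene symbol through RefSeq. limma 3.58.1 in R 4.3.3 fitted 4 group means to log2(Cy5/Cy3). Adjusted p is Benjamini-Hochberg over all probes whose Cy5 and Cy3 signals were well above background on every array of the comparison, with a threshold of 0.05. The brightest probe stood for a gene. Members, gene lists, motifs and tests were chosen with earlier results of these data known. Named genes were the members, the next 3 falls at 1 day, the 5 highest and 5 lowest correlations with Slc22a26, and list genes called at 3, 7 or 14 days or whose times did not overlap. Other falls at 1 day were named after their values were seen. A few genes that this rule names are not reported here. The fit was also run on simulated ratios from independent arrays, which cannot show how it behaves with correlated arrays or shared controls. Pools of a group came from different mice, and p-values rest on the spread of the array ratios around their group means. This spread was estimated over all 4 groups together, including the 1 day arrays that chose the genes. The main fit took the arrays as independent. If control pools were shared between gavage times, the p-values do not measure the spread between independent pools. The calls at 3 and 7 days would then not be independent of each other. 3 arrays a time limit the precision.

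Same-numbered arrays of 1, 3 and 7 days correlated in log2 ratio at 0.37 to 0.65 over 9 pairs, and at -0.04 to 0.29 with the 14 day arrays. The main fit did not use this pairing, and the replicate number was a block only in an alternative fit. Alternatives covered background correction, scaling, filters, outlier spots, arrays in the fit, replicate and slide blocks, the methods' t-test and leaving out arrays.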

Additional observations from a re-analysis of the deposited data

Results flagged for a closer look

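By the main scaling, several genes had every array on one side of 0 at one time and every array on the other side at another. The share of all probes that did so is not given, so nothing is read from this about the group. Some arrays lay close to 0. Slc22a23 was at 0.0013 on replicate 3 at 14 days. Slc22a27 was at -0.037 on replicate 2 at 3 days, or 0.0020 with ratios as deposited. The Slc22a26 ratio was higher at 14 than at 1 day by 1.44, and that of Slc22a27 by 1.26; these differences were not tested, because 1 day chose the genes, and agent, route and control differ as well as time. The Slc22a27 ratio was also higher at 14 than at 3 days by 0.81, and this difference was not tested. Between 7 and 1 day of MgH2, Slc22a5 was higher by 0.46 and Slc22a18 by 0.20, and neither difference was tested. Slc22a23 was higher at 14 than at 7 days by 0.45, where limma gave an adjusted p of 0.0816.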

How the results depend on the processing

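Of 602 alternative values of single genes at 3, 7 or 14 days or between them, 550 kept their direction and side of the threshold, 23 lost a call, 11 gained one, and 18 changed sign, all without a call on either side. Only the genes called by the main fit, 2, 2 and 1 at 3, 7 and 14 days, could lose a call, so the 23 are not to be read as a share of 602. The number of the 7 genes called fell to 0 at 3, 7 and 14 days (from 2, 2 and 1) when Feature Extraction's own p also had to pass on every array, and with the methods' t-test after Benjamini-Hochberg adjustment; unadjusted, that t-test called 2, 2 and 0. Fitting only the arrays compared gave 0 at 3 days and 0 at 14 days, and 1 between 7 and 14 days. Without the filter on dim probes the count at 14 days was 0. Between 7 and 14 days, where the count was 0, median centring gave 2, slide as a random block 1 and the replicate block 2. The replicate block otherwise changed 1 call, adding Slc22a7 at 7 days for a count of 3, as median centring did, while loess added Slc22a5 for a count of 3. Leaving out 1 array gave 2 to 2 genes at 3 days, 1 to 1 at 7 days, 0 to 0 at 14 days and 0 to 0 in both differences between times; at 3 days Slc22a7 was replaced by Slc22a23 without replicate 1 and by Slc22a26 without replicate 2. At 1 day, where arrays were left out after seeing the data, Slc22a26 ran from -1.14 to -0.81, and with normexp and loess it was -0.56.

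The values that changed sign were small. Slc22a26 at 7 days went from -0.02 to 0.0037 with ratios as deposited or the deposited table, 0.011 with loess and 0.017 with slide as a random block. Slc22a28 at 14 days went from -0.08 to 0.0062 with median centring and 0.0092 with loess. Between 3 and 7 days Slc22a18 went from 0.01 to -0.097 with median centring and -0.013 with loess, and Slc22a28 from 0.03 to -0.081 with median centring and -0.056 with the mean of its probes. Between 7 and 14 days median centring took Slc22a5 from -0.15 to 0.029 and Slc22a18 from -0.05 to 0.13, and it took Slc22a18 at 7 days from 0.05 to -0.034. With 1 array left out, values ran from -0.17 to 0.25 for Slc22a26 at 7 days, -0.066 to 0.13 for Slc22a5 at 14 days, and, for Slc22a18, -0.000256 to 0.099 at 3 days, -0.031 to 0.052 at 14 days and -0.046 to 0.053 between 3 and 7 days.

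Median centring moved the median of all probes tested to -0.11 at 7 days and to 0.17 for 14 minus 7 days. Probes called higher and lower at 3 days were 1760 and 2827, and 2389 and 2155 with ratios as deposited. At 7 days they were 2383 and 3355, and 939 and 5274 after median centring, and at 14 days 800 and 1179 became 1276 and 96. Between 7 and 14 days 657 and 564 became 3903 and 103. Relative to the 7 day shift, Slc22a5 stood at 0.12. Depth is not counted on arrays, and with 3 arrays a time the 95% interval for Slc22a26 at 3 days ran from -1.08 to -0.10.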
